A study of Arabidopsis thaliana with 6 samples.

Results

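The 10 genes described here belong to the danger peptide and pattern-triggered immunity pathway of Arabidopsis thaliana. They were chosen by locus identifier, 10 of the 24379 genes in the deposited table. The rule names loci and no expression value, but the choice was made with earlier results of these data known. They comprise the peptide precursor genes PROPEP1, PROPEP2 and PROPEP3, the receptor genes PEPR1, PEPR2 and FLS2, the cytoplasmic kinase gene BIK1, and FRK1, PHI-1 and NHL10, whose transcripts are widely used as markers of the early response. Expression was measured by RNA-seq in WT (Col-0) seedlings, 7 days old, and the question was how the root transcriptome responds to aluminum (Al). The 3 Al samples came from seedlings exposed to 25 µM AlCl3 for 3 h, and the 3 control samples from seedlings without Al. No mutant or transgene was involved. The labels call the tissue roots, while the methods of the study describe root tips of about 0.5 cm and give the dose and the time.

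Peps are short peptides cut from the C-terminal end of PROPEP proteins, which lack a typical secretion signal and are released when cells are injured. At the cell surface Peps are bound by PEPR1 and PEPR2, leucine-rich repeat receptor kinases that recruit the co-receptor BAK1, in the same way that FLS2 recruits BAK1 after binding flg22, a fragment of bacterial flagellin. Both kinds of receptor pass the signal to the cytoplasmic kinase BIK1, which phosphorylates the NADPH oxidase RBOHD, and to MAP kinases, and within minutes to hours the transcription of early response genes rises. PROPEP2, PROPEP3 and the PEPR genes are themselves known to respond to wounding or to Pep treatment, so the precursors and receptors form a loop.

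The deposited values are FPKM, fragments counted per transcript, scaled by transcript length and by the mapped fragments of the sample, so levels of different genes can be compared per length. The spacing of the lowest FPKM values gave an estimated depth of 21850000 to 22050000 fragments per sample. The test was limma on log2(FPKM + 1), fitted over the 18463 genes that reached FPKM 1 in 3 or more samples, and a gene was called at a Benjamini-Hochberg adjusted p under 0.05. The added 1 shrinks the fold changes of weakly expressed genes. After Al, 21.3% of the tested genes were called higher and 38.5% lower (3933 and 7106 genes). Under median-ratio scaling this balance turned, with 5381 called higher and 4984 lower. Across all tested genes the log2 fold change had a median of -0.13. Shoot markers were low in all samples (summed FPKM of 5 genes 7.18 to 9.48 in the control and 6.99 to 13.62 after Al, none at 0 in every sample). None of them was called, but RBCS3B was called higher with the replicate number as a block (log2 fold change 0.54, limma adjusted p = 0.0301), also with the GC correction added (0.0152), and without the Al replicate 3 (0.0285). Of 8 root tip markers, none at 0 in every sample, 7 were tested, and 5 were called lower, among them the root cap regulator gene SMB and the stem cell regulator gene PLT1. CASP1, another of the 5, overlapped between the groups and lost its call in 5 alternatives (limma adjusted p = 0.0257, 0.00116 to 0.174 over the alternatives). The summed FPKM of the 8 markers, to which CASP1 gave the most (a mean of 85.5 in the control), was 142.88 to 173.88 in the control and 120.33 to 127.12 after Al. Of 3 markers of mature root and root hairs, COBL9 and EXP7 were called lower, and the summed FPKM was 54.96 to 59.03 in the control and 32.27 to 40.58 after Al. Fewer cells of a type and less RNA per cell cannot be told apart in these bulk samples. The part of these marker changes in the results below was not tested.

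Of the 10 genes, 8 passed the filter on low values, and each of these 8 was called higher after Al, against 21.3% of all tested genes. A rise of at least 1 on the log2 scale was seen in 6 of them, against 6.45% of all tested genes. PEPR2 and PHI-1 passed the filter only with the help of the Al samples, so the filter itself shaped these counts. PHI-1, below FPKM 1 in every control sample, had to be higher after Al to be tested. PEPR2 was above FPKM 1 in the control replicate 2 only (1.05), so the filter favoured a rise without requiring it. With FPKM of at least 1 required in every sample, 6 of the 10 genes were tested and 6 were called higher. FLS2 and FRK1 did not pass the filter. In 9 of the 10 genes every Al sample lay above every control sample, a pattern found in 23.3% of the tested genes, and in FLS2 every Al sample lay below every control sample, as in 42.9% of the tested genes. FRK1, among the 9, and FLS2 were not tested themselves, whereas both shares are over tested genes only.

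**Figure D1:**
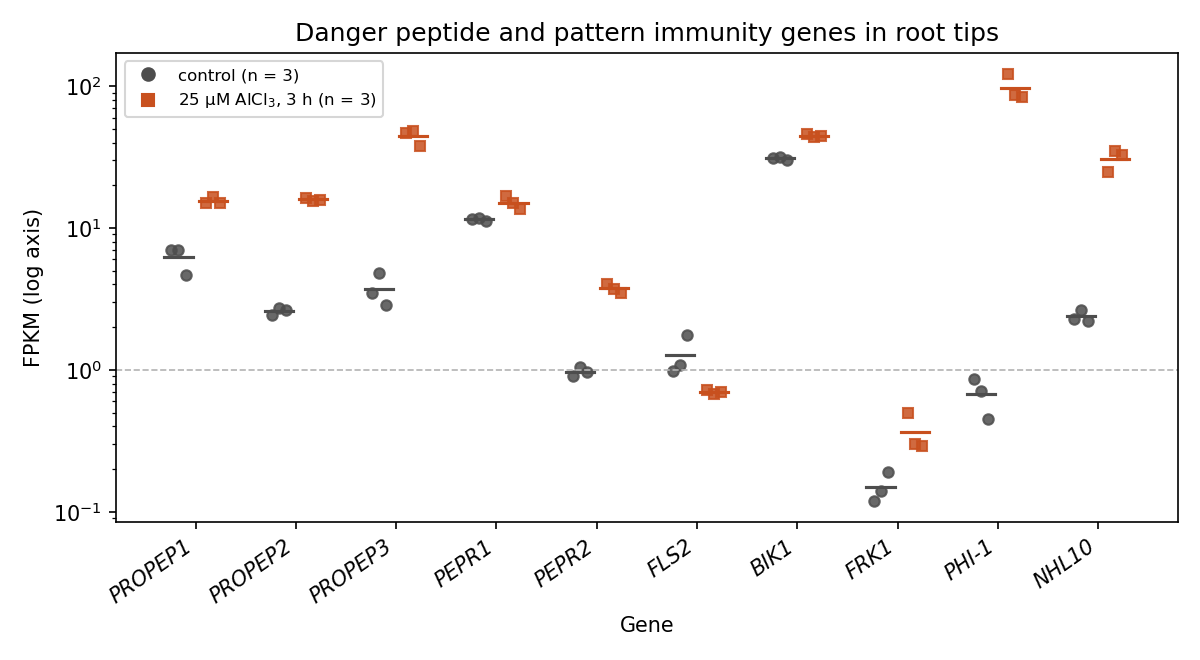
FPKM (log axis) of the 10 genes in each of the 3 control samples (grey circles) and 3 Al samples (orange squares), with the group mean as a line and FPKM 1 as a dashed line. The Al samples lie above the control samples for all genes except FLS2, and the widest gap is that of PHI-1, from a mean of 0.673 to 96.7.

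The ligand precursor genes PROPEP2, PROPEP1 and PROPEP3 lie next to each other, in this order and on the plus strand, on chromosome 5 (coordinates of TAIR10.1 throughout). PROPEP2 (AT5G64890) spans 25934568 to 25935612 and PROPEP1 (AT5G64900) 25937078 to 25938176, each with 2 exons, and PROPEP3 (AT5G64905), with 1 exon, spans 25939562 to 25940080. The gaps between them are 1465 and 1385 bases. Their coding sequences are related but distinct. PROPEP1 and PROPEP2 share 62.4% of aligned positions, PROPEP1 and PROPEP3 56.6%, and PROPEP2 and PROPEP3 178 of 356. No stretch of 50 bases of any of these transcripts is repeated in an annotated transcript elsewhere, so fragments could be assigned to each of them.

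The 250 bases before the annotated start of these neighbouring genes, and of PHI-1, the gene with the widest change, are shown as examples. These 4 genes were called higher, to unlike degrees, and hold a short motif that is present near the start of all 10 genes. Capitals mark TTGAC, the core of the W-box that WRKY transcription factors recognise, which reads GTCAA on the opposite strand, and CGCGTT, known as the rapid stress response element, which reads AACGCG on the opposite strand. The sequences were read 5′ to 3′ from RefSeq TAIR10.1, all on the plus strand, at chr5:25934318-25934567, chr5:25936828-25937077, chr5:25939312-25939561 and chr1:12851733-12851982 in the order listed.
PROPEP2: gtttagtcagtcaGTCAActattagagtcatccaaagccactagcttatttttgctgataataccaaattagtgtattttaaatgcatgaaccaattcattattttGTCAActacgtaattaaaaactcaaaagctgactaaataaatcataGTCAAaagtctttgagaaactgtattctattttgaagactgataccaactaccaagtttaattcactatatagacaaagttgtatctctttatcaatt
PROPEP1: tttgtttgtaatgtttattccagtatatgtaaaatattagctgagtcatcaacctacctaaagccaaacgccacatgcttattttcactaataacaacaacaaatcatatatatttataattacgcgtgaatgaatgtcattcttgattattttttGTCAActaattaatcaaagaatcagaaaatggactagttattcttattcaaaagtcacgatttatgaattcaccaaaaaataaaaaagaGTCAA
PROPEP3: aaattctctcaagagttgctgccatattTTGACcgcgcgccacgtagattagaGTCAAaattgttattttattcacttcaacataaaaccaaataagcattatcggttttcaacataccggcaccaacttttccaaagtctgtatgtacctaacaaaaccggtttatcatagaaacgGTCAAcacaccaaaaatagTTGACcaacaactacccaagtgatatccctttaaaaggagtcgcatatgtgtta
PHI-1: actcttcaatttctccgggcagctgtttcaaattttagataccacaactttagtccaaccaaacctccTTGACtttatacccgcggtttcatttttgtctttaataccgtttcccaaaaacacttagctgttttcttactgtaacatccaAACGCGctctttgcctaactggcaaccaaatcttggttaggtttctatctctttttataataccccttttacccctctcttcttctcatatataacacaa
PROPEP3 held 4 TTGAC motifs, PROPEP2 held 3, PROPEP1 held 2 and PHI-1 held 1. The CGCGTT motif was found in PHI-1 only, on the opposite strand. The motifs can overlap by the bases TT, and in these 4 windows none did.

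In a window of 300 bases, 250 before and 50 after the start, TTGAC was present on either strand in 10 of the 10 genes, against 50.5% of 27443 protein-coding gene promoters and 51.9% of the promoters of tested genes. At least 2 copies were present in 8 of the genes (17.7% of all promoters), and at least 3 in 4 of them, PROPEP2, PROPEP3, PEPR1 and FRK1 (4.86% of all promoters). CGCGTT was present in 3.40% of all promoters. The genes with 3 or more copies included FRK1, at FPKM 0.50 or less in all samples, so the number of copies did not order the genes by level. From PROPEP3 through PROPEP2 to PROPEP1, copies (4, 3 and 2) and log2 fold changes (3.28, 2.23 and 1.21) fell together. Over all tested members they did not. PEPR1, with 3 copies, had the smallest rise (0.36), and PHI-1, with 1 copy, had the largest (5.85). These matches describe the letters in the windows and are not evidence of binding.

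**Figure D2:**
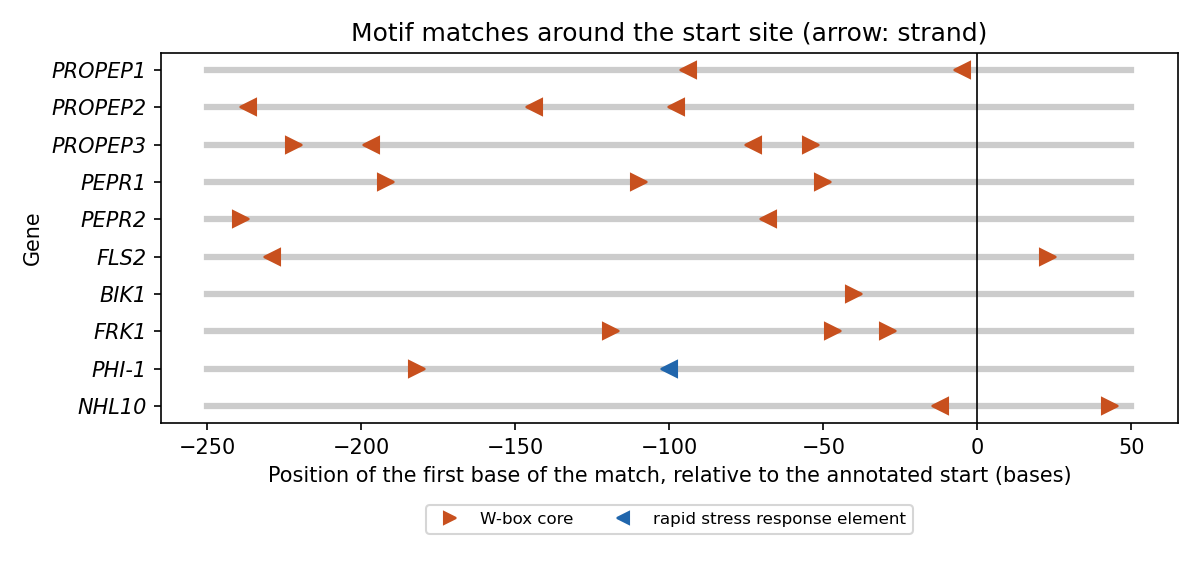
Positions of TTGAC (orange) and CGCGTT (blue) in the window from 250 bases before to 50 after the annotated start of each of the 10 genes, with the distance from the start in bases on the x axis and arrowheads pointing right for matches on the strand of the gene and left for the opposite strand. Every gene has at least 1 TTGAC, with 4 in PROPEP3, and PHI-1 alone has a CGCGTT.

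PROPEP3 encodes the precursor of Pep3. Its FPKM was 3.50, 4.82 and 2.85 in the control samples and 46.83, 48.31 and 38.05 after Al. The groups were far apart, and the lowest Al sample was well above the highest control sample. The mean rose from 3.72 ± 1.004 to 44.4 ± 5.55 (SD, n = 3 each), a ratio of 11.9. The log2 fold change was 3.28 (standard error, SE, of 0.15, limma adjusted p = 2.27e-07), which ranked 134 among the rises of all tested genes. The estimated fragments behind these values were 30 to 50 per control sample and 395 to 504 per Al sample.

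PROPEP2, the precursor gene of Pep2, had FPKM of 2.43, 2.71 and 2.66 in the control and 16.33, 15.49 and 15.85 after Al. Replicates lay close together in both groups, and the groups did not overlap. Mean FPKM increased from 2.6 ± 0.149 to 15.89 ± 0.421 (SD, n = 3 each), a ratio of 6.11, with a log2 fold change of 2.23 (SE 0.082, limma adjusted p = 5.29e-08).

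PROPEP1, which encodes the precursor of Pep1, the first of these peptides to be isolated, had FPKM of 7.05, 6.96 and 4.63 in the control and 14.96, 16.51 and 15.11 after Al. The control replicate 3 was the lowest sample, and all Al samples exceeded the highest control. On average FPKM rose from 6.21 ± 1.37 to 15.5 ± 0.855 (SD, n = 3 each), a ratio of 2.50, with a log2 fold change of 1.21 (SE 0.14, limma adjusted p = 7.41e-05).

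The 3 precursors therefore ended in another order than they began. In the control PROPEP1 had the highest mean, although its range overlapped that of PROPEP3, and it made up 49.3% ± 4.47 (SD, n = 3) of the summed FPKM of these 3 genes. After Al PROPEP3 made up 58.4% ± 2.84 (SD, n = 3), from 29.4% ± 3.36 (SD, n = 3) in the control, and PROPEP1 made up 20.5% ± 1.37 (SD, n = 3). The share of PROPEP2 was 21.2% ± 4.34 in the control and 21.1% ± 1.84 after Al (SD, n = 3 each), a difference smaller than the spread between replicates. The summed FPKM of the 3 genes went from 12.5 ± 2.21 to 75.8 ± 5.99 (SD, n = 3 each).

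The difference in response within the cluster was compared sample by sample. The ratio of PROPEP3 to PROPEP1 was 0.496 to 0.693 in the control samples and 2.52 to 3.13 in the Al samples. On the log2(FPKM + 1) scale PROPEP3 gained 2.06 over PROPEP1 (SE 0.15). PROPEP2 gained 1.02 over PROPEP1 (SE 0.20), and PROPEP3 gained 1.05 over PROPEP2 (SE 0.20). In each of these 3 pairs the within-sample differences did not overlap between the groups. By exact two-sided permutation p was 0.1 for each, the smallest p that 3 samples against 3 allow, and adjusted over the 4 pairs compared, PEPR2 with PEPR1 included, it was also 0.1.

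Of the other listed PROPEP genes, PROPEP4 to PROPEP7, 2 were called. PROPEP4 rose from an FPKM of 19.9 ± 1.05 to 32.1 ± 2.43 (SD, n = 3 each; log2 fold change 0.66, limma adjusted p = 9.15e-05). PROPEP6 rose from 19.8 ± 3.20 to 42.0 ± 3.20 (SD, n = 3 each; log2 fold change 1.06, limma adjusted p = 4.41e-05), and its transcript overlaps antisense genes, so its value is uncertain if strand was ignored in counting. PROPEP5 was at 3.61 ± 0.318 without and 3.75 ± 0.441 with Al (SD, n = 3 each) and was not called (log2 fold change 0.04, limma adjusted p = 0.772). PROPEP7, with the highest mean of the 7 listed PROPEP genes in the control, had 28.1 ± 4.90 and 24.0 ± 0.9 (SD, n = 3 each) and was not called (log2 fold change -0.21, limma adjusted p = 0.138), but was called lower without the control replicate 3, which held its lowest control value (-0.34, limma adjusted p = 0.00772, within a range of 0.00397 to 0.661 over the alternatives). PROPEP1, PROPEP2 and PROPEP3 together made up 14.9% ± 2.24 (SD, n = 3) of the summed FPKM of these 7 genes without Al, and 42.7% ± 3.30 (SD, n = 3) with it.

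**Figure D3:**
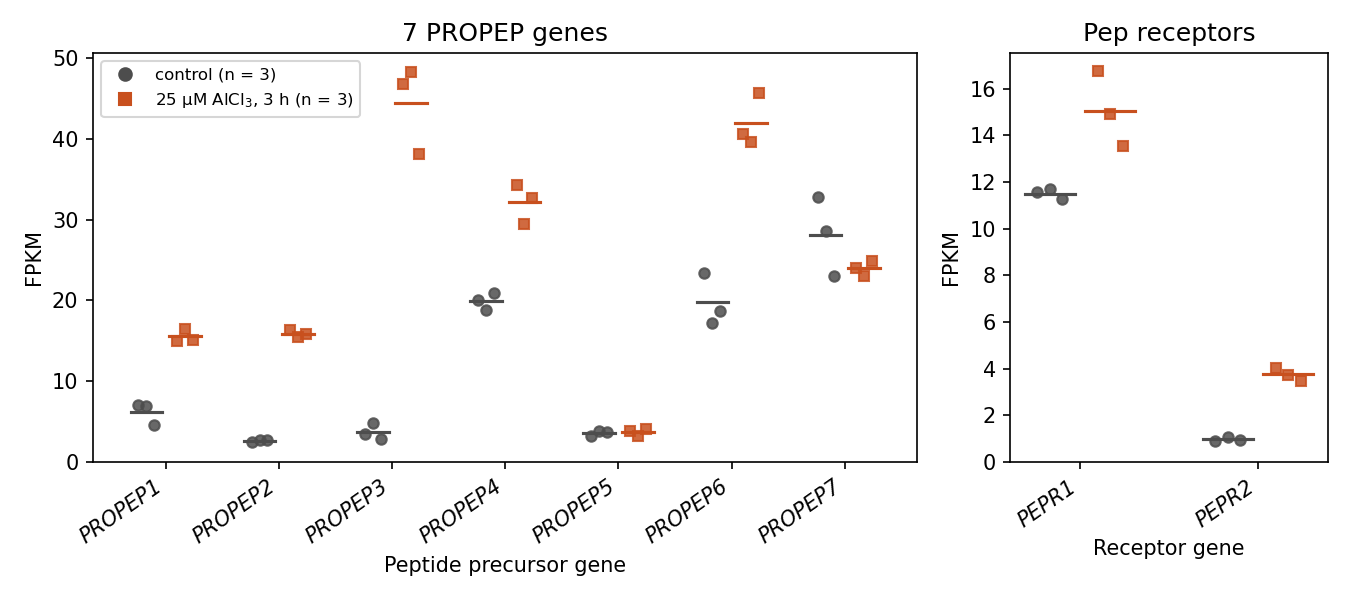
FPKM (linear axes) of 7 PROPEP genes (left) and of PEPR1 and PEPR2 (right) in each control sample (grey circles) and Al sample (orange squares), with lines at the group means. PROPEP3 goes from 3.72 to 44.4, to a mean above those of PROPEP4 and PROPEP6, although its Al samples overlap those of PROPEP6, whereas PROPEP5 and PROPEP7 overlap between the groups, and PEPR1 stays above PEPR2 in both groups.

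The receptors of the Peps were expressed at unequal levels. PEPR1 (AT1G73080, chromosome 1, 27484240 to 27488204, plus strand, 2 exons) binds a broad set of Peps. Its FPKM was 11.56, 11.68 and 11.25 in the control and 16.73, 14.89 and 13.53 after Al, with all Al samples above the controls but spread more widely. The mean rose from 11.5 ± 0.222 to 15.05 ± 1.61 (SD, n = 3 each), a ratio of 1.31. The log2 fold change was 0.36 (SE 0.087, limma adjusted p = 0.00652), the smallest rise among the 8 tested genes, and the adjusted p ranged up to 0.0251 over the alternatives.

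PEPR2 (AT1G17750, chromosome 1, 6106323 to 6110120, plus strand, 2 exons) is known to bind Pep1 and Pep2. It was at FPKM 0.91, 1.05 and 0.96 in the control, close to the limit of the filter, and at 4.03, 3.74 and 3.49 after Al. Replicates were tight and the groups did not overlap. Its mean went up from 0.973 ± 0.0709 to 3.75 ± 0.270 (SD, n = 3 each), a ratio of 3.86, and the log2 fold change was 1.27 (SE 0.10, limma adjusted p = 8.09e-06). Of the 50-base stretches of the PEPR2 transcript 19.1% also occur in other annotated genes. The largest number is in an antisense gene, AT1G05327, which was not analysed here. A further antisense neighbour, AT1G17760, was at 17.4 ± 0.836 in the control and 14.9 ± 0.711 after Al (SD, n = 3 each; log2 fold change -0.21, limma adjusted p = 0.0319), and its call was lost in some alternatives (log2 fold change -0.28 to -0.07, limma adjusted p 0.0117 to 0.369). Fragments from the stretches that PEPR2 shares with its antisense partners cannot be told apart if strand was ignored in counting.

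PEPR1 remained the higher of the pair in every sample. PEPR2 stood at 0.0787 to 0.0899 of the FPKM of PEPR1 in the control samples and at 0.241 to 0.258 in the Al samples. PEPR2 gained 0.91 over PEPR1 on the log2(FPKM + 1) scale (SE 0.045, exact two-sided permutation p = 0.1, the smallest possible). With 0.1 added in place of 1 the gain was 1.46, so its size depends on the added value. The share of PEPR2 in the summed FPKM of both receptors went from 7.80% ± 0.478 to 20.0% ± 0.551 (SD, n = 3 each). The coding sequences of PEPR1 and PEPR2 are identical at 72.7% of aligned positions. Of the 50-base stretches of the PEPR1 transcript 2.51% occur in other annotated genes, with the largest number in its neighbour AT1G73066. Most of the PEPR1 transcript could be counted without ambiguity.

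FLS2 (AT5G46330, chromosome 5, 18791575 to 18795908, plus strand, 2 exons), the flagellin receptor gene, had the opposite direction. Its FPKM was 0.99, 1.09 and 1.75 in the control and 0.72, 0.68 and 0.70 after Al. The Al samples lay close together below all controls, and the control replicate 3 stood apart from the other controls. The means were 1.28 ± 0.413 and 0.7 ± 0.02 (SD, n = 3 each), from an estimated 92 to 162 fragments per control sample and 63 to 66 per Al sample. FLS2 reached FPKM 1 in 2 samples only and was not tested. An antisense gene, AT5G46340, overlaps it at a higher FPKM (23.9 ± 1.56 in the control and 20.9 ± 1.397 after Al, SD, n = 3 each), and 2.93% of the 50-base stretches of the FLS2 transcript are shared.

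EFR, the receptor gene for bacterial elongation factor Tu, was also below the filter, at an FPKM of 0.697 ± 0.116 in the control and 0.957 ± 0.199 after Al (SD, n = 3 each), with overlapping groups. Among 17 other immune receptors and co-receptors, 15 were tested, 12 were called higher and 2 lower, and 1, LORE, was not called. Of all tested genes 21.3% were called higher and 38.5% lower. The median log2 fold change of the list was 0.73, against -0.13 for all tested genes. The largest rises were those of LLG1, a membrane-anchored chaperone of receptor kinases (84.2 ± 5.74 to 220.5 ± 5.83, SD, n = 3 each; log2 fold change 1.38), of BKK1, the closest relative of BAK1 (10.09 ± 0.245 to 21.4 ± 2.08; 1.01), and of SOBIR1, an adaptor kinase of receptor-like proteins (42.7 ± 3.06 to 86.7 ± 4.17; 1.01). BKK1 shares 23.1% of its 50-base stretches with other genes, AT2G13800 most of all. SOBIR1 shares 27.96% with other genes, an antisense gene most of all, so both values are uncertain. BIR3, a kinase-like protein that holds BAK1 back from receptors, and DORN1, the receptor of extracellular ATP, fell by 0.51 and 0.46 on the log2 scale (limma adjusted p = 0.000227 and 0.000793). BAK1 itself, named after its values were seen, rose from 60.0 ± 1.24 to 85.6 ± 0.947 (SD, n = 3 each; log2 fold change 0.50, limma adjusted p = 6.39e-05).

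BIK1 (AT2G39660, chromosome 2, 16531527 to 16533986, plus strand, 6 exons) was the most highly expressed of the 10 genes in the control. Its FPKM was 31.17, 31.50 and 30.18 in the control and 45.66, 43.79 and 44.39 after Al. Both groups were narrow and well separated. The group means rose from 30.95 ± 0.687 to 44.6 ± 0.955 (SD, n = 3 each), a ratio of 1.44, with a log2 fold change of 0.51 (SE 0.058, limma adjusted p = 7.93e-05). This rise was small beside those of the ligand genes but larger than the spread between replicates, and no stretch of its transcript is shared with another gene.

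Around BIK1, 29 other cytoplasmic kinases, ubiquitin ligases and early signalling genes were listed. Of these 27 were tested, with 18 called higher, 3 lower and 6 not called, and a median log2 fold change of 0.50. Over all tested genes the shares called were 21.3% higher and 38.5% lower. The largest rises were those of MPK11, a MAP kinase gene (0.290 ± 0.030 to 5.30 ± 0.659, SD, n = 3 each; log2 fold change 2.28, tested only through the Al samples), RIPK, a cytoplasmic kinase related to BIK1 (12.7 ± 1.08 to 53.7 ± 6.43; 2.00), and MPK3, a MAP kinase activated by Peps and flg22 (64.4 ± 5.77 to 234.3 ± 34.5; 1.84). MPK3 overlaps the antisense gene AT3G45645. RBOHD, the oxidase phosphorylated by BIK1 and named after its values were seen, rose from 10.14 ± 1.87 to 33.2 ± 0.712 (SD, n = 3 each; log2 fold change 1.63, limma adjusted p = 3.59e-06). PUB13, a ubiquitin ligase that acts on FLS2, fell by 0.39 (limma adjusted p = 0.000606), PBL27, a kinase of the chitin response, by 0.33 (0.00377) and OSCA1.3, a calcium channel that BIK1 phosphorylates, by 0.30 (0.0268) on the log2 scale. Over the alternatives the limma adjusted p ranged from 0.00167 to 0.0704 for PBL27 and from 0.0120 to 0.154 for OSCA1.3, and both calls were lost in some of them. PBL1, a relative of BIK1 counted among the 18 (log2 fold change 0.20, limma adjusted p = 0.0312), lost its call in 10 alternatives (0.00144 to 0.781 over all of them).

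PHI-1 (AT1G35140, chromosome 1, 12851983 to 12853235, plus strand, 1 exon) encodes a protein of the EXORDIUM family and is a marker of the early flg22 response. Its FPKM was 0.86, 0.71 and 0.45 in the control and 120.96, 85.83 and 83.28 after Al. It was the lowest but one of the 10 genes in the control and the highest after Al, and the Al replicate 1 exceeded the other Al samples. The mean rose from 0.673 ± 0.207 to 96.7 ± 21.1 (SD, n = 3 each), a ratio of 143.6. The log2 fold change of 5.85 (SE 0.15, limma adjusted p = 7.32e-09) ranked 6 among the rises of all tested genes. The control values rest on an estimated 12 to 23 fragments per sample, against 2200 to 3210 after Al.

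NHL10 (AT2G35980, named YLS9 in the deposited table, chromosome 2, 15110492 to 15111539, plus strand, 1 exon) encodes a membrane protein related to NDR1 and is a marker of early immune and calcium-dependent kinase signalling. It had FPKM of 2.30, 2.66 and 2.22 in the control and 24.83, 34.72 and 32.84 after Al. The Al replicate 1 was the lowest of the Al samples, the reverse of its place for PHI-1, and the groups did not overlap. The mean rose from 2.39 ± 0.234 to 30.8 ± 5.25 (SD, n = 3 each), a ratio of 12.9, with a log2 fold change of 3.22 (SE 0.13, limma adjusted p = 8.01e-08).

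FRK1 (AT2G19190, chromosome 2, 8326049 to 8329944, minus strand, 13 exons), a receptor-like kinase gene and a standard marker of the flg22 response in leaves and protoplasts, was the lowest of the 10 genes in both groups. Its FPKM was 0.12, 0.14 and 0.19 in the control and 0.50, 0.30 and 0.29 after Al. All Al samples were above the controls, but the values rest on an estimated 7, 8 and 11 fragments in the control samples and 29, 17 and 17 in the Al samples. The means were 0.15 ± 0.0361 and 0.363 ± 0.118 (SD, n = 3 each), and FRK1 was not tested. The antisense gene AT2G19180, which overlaps FRK1, was at an FPKM of 42.0 ± 2.23 in the control and 51.5 ± 2.04 after Al (SD, n = 3 each; log2 fold change 0.29, limma adjusted p = 0.00426). Of the 50-base stretches of the FRK1 transcript 0.339% are shared with other genes. Fragments from the shared part cannot be told apart if strand was ignored in counting.

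**Figure D4:**
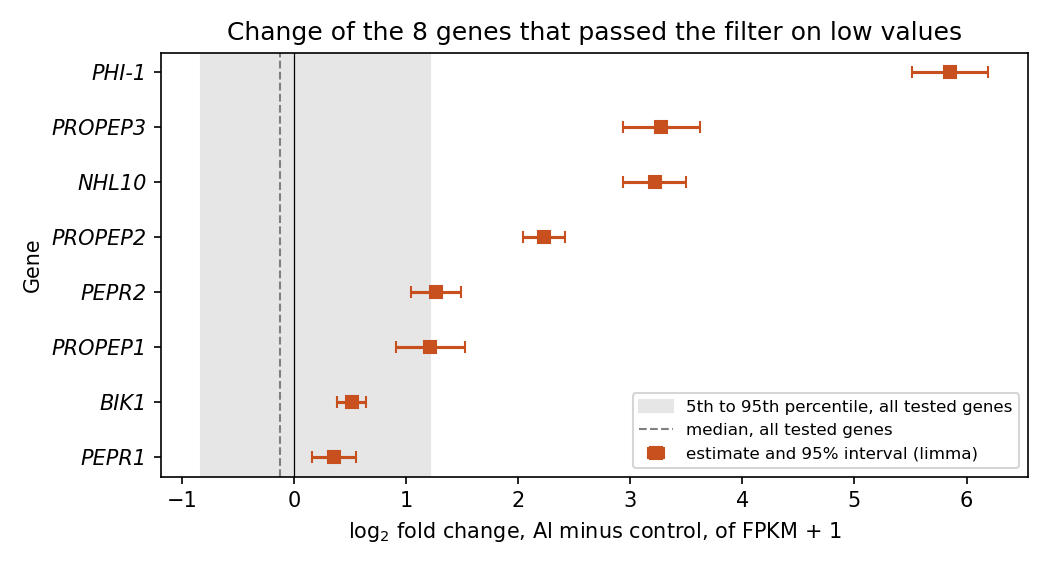
Log2 fold change (Al minus control, of FPKM + 1) of the 8 genes that passed the filter, with 95% intervals from limma, over the range from the 5th to the 95th percentile of all tested genes (grey band, -0.83 to 1.21) and their median (dashed line, -0.13). PHI-1 (5.85), PROPEP3 (3.28), NHL10 (3.22), PROPEP2 (2.23) and PEPR2 (1.27) lie beyond the band, and PROPEP1 (1.21) lies at its upper edge. PEPR1 (0.36) and BIK1 (0.51) lie inside it.

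The order of levels differed between the groups. In the control it ran from BIK1 through PEPR1, PROPEP1, PROPEP3, PROPEP2, NHL10, FLS2, PEPR2 and PHI-1 to FRK1, where PROPEP1 and PROPEP3, PROPEP2 and NHL10, and FLS2 and PEPR2 overlapped. After Al it ran from PHI-1 through BIK1, PROPEP3, NHL10, PROPEP2, PROPEP1, PEPR1, PEPR2 and FLS2 to FRK1. There BIK1 and PROPEP3 overlapped, as did PROPEP2 with PROPEP1 and PROPEP1 with PEPR1. PEPR1 and BIK1, which had the smallest log2 fold changes of the 8 tested genes, were the highest in the control.

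Most of the other early pattern-response genes were also higher after Al. All 21 genes of this list were tested, and 17 were called higher and 4 lower, with a median log2 fold change of 2.13. Among all tested genes 21.3% were called higher and 38.5% lower. CYP71A12, WRKY30 and FOX1 passed the filter only with the help of the Al samples. Each was above FPKM 1 in only 1 control sample, so the filter favoured a rise without requiring it. With FPKM of at least 1 in every sample 14 were called higher. The largest rises were those of PGIP1, an inhibitor of fungal polygalacturonases (15.6 ± 5.46 to 630.0 ± 22.7, SD, n = 3 each; log2 fold change 5.30), CYP71A12, an enzyme of indolic defence compound synthesis (1.02 ± 0.617 to 70.3 ± 4.09; 5.18), and CYP81F2, an enzyme of indole glucosinolate modification (2.80 ± 0.305 to 53.4 ± 4.34; 3.84). PGIP1 shares 83.7% of its 50-base stretches with other genes, the antisense gene AT5G06865 most of all, so its value is uncertain. The genes that fell were WRKY17 (-0.82), MLO12 (-0.46), WRKY11 (-0.43) and WRKY22 (-0.32). WRKY11 and WRKY17 encode negative regulators of basal resistance, MLO12 a relative of a powdery mildew susceptibility protein, and WRKY22 a factor downstream of the flg22 MAP kinase cascade. The call of WRKY22 (limma adjusted p = 0.0121) was lost under some alternatives, over which it ranged from 0.00451 to 0.133.

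Among 14 other peptide precursors and processing genes, 13 were tested, with 7 called higher, 0 lower and 6 not called. The shares over all tested genes were 21.3% higher and 38.5% lower. The median log2 fold change of this list was 0.29. Of the 7, prePIP1 and prePIP2 were tested only through the Al samples and had to be higher, and with FPKM of at least 1 in every sample 5 were called higher. PROPEP4 and PROPEP6, described above, are also among the 7. The largest rises were those of prePIP1, a precursor of a peptide that amplifies immunity (0.577 ± 0.191 to 14.5 ± 0.431, SD, n = 3 each; log2 fold change 3.30), of prePIP2, its relative, which was listed at 0 in the 3 control samples and at 4.17, 2.53 and 2.77 after Al, and of RALF33 (25.4 ± 2.83 to 80.0 ± 6.86; 1.62), the precursor of a peptide read by the receptor kinase FERONIA. RALF33 shares 21.2% of its 50-base stretches with other genes, an antisense gene most of all. MC4, the metacaspase that cuts PROPEP1 in damaged cells, was at 112.1 ± 2.01 in the control and 133.3 ± 7.6 after Al (SD, n = 3 each) and was called higher (log2 fold change 0.25, limma adjusted p = 0.00851), but not under quantile normalization (0.107, within a range of 0.000709 to 0.107).

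Of 13 later salicylate and jasmonate defence genes, 9 were in the table and 7 were tested. All 7 were called higher, against 21.3% of all tested genes, with a median log2 fold change of 1.86. PR1, PR2, PR5 and PDF1.2a were not analysed here, and ALD1 and VSP2 were below the filter, at an FPKM of 0.06 or less in every sample. The jasmonate genes of the list, PDF1.2a and VSP2, were thus not tested. The 7 calls say nothing about them or about the PR genes. The largest rises were those of FMO1, an enzyme of systemic resistance (2.28 ± 0.749 to 26.0 ± 2.66, SD, n = 3 each; log2 fold change 3.07), CBP60g, a transcription factor of salicylate synthesis (13.0 ± 0.967 to 104.5 ± 7.81; 2.91), and PAD4, a regulator of basal resistance (30.9 ± 1.84 to 126.0 ± 13.1; 1.99). ICS1, the salicylate synthesis gene, was called at a log2 fold change of 0.52 (limma adjusted p = 0.0394, 0.00896 to 0.139 over the alternatives), although its control and Al samples overlapped.

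**Figure D5:**
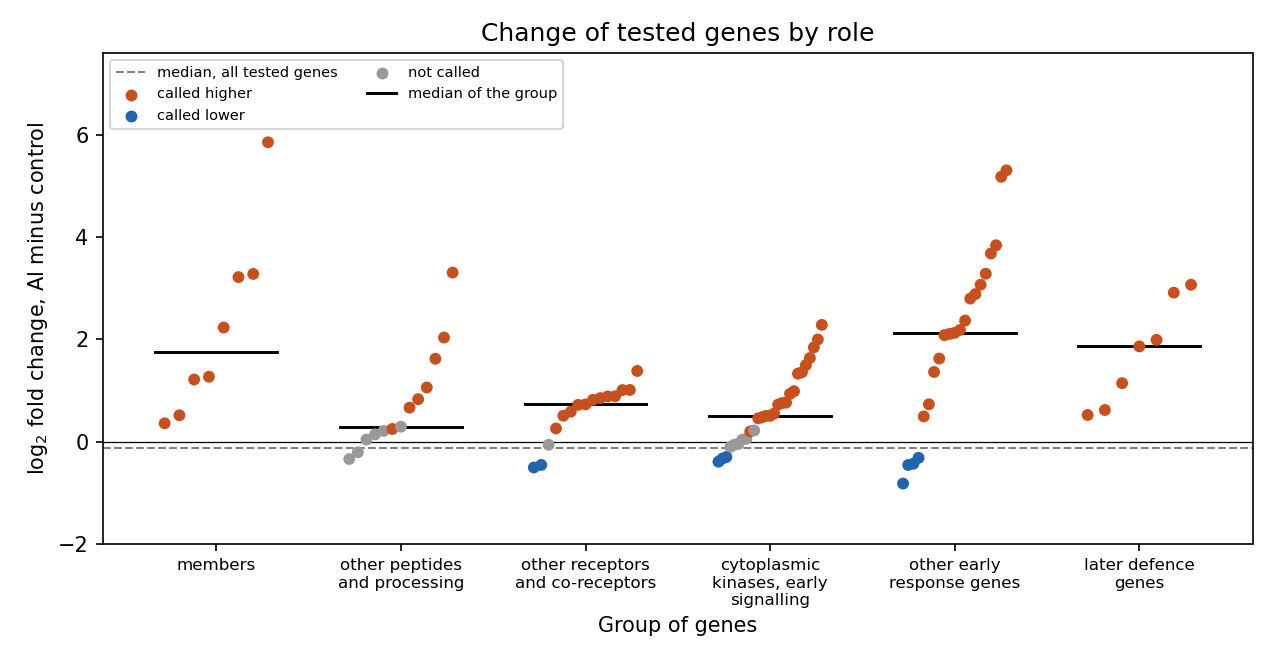
Log2 fold change (Al minus control, of FPKM + 1) of every tested gene in the 6 groups, coloured by call, with a black line at the median of each group and a dashed line at the median of all tested genes (-0.13). The medians are 0.29 for other peptide precursors, 0.73 for receptors, 0.50 for cytoplasmic genes, 2.13 for other early genes and 1.86 for later genes, and the lists were drawn up from known roles with earlier results of these data in view.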

How the data were processed

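RNA-seq of random-primed cDNA from 3 Al and 3 control samples was analysed. Groups and replicate numbers came from the labels. Separate cultures are not stated, so p-values measure the spread between these samples, which may be technical. The authors deposited FPKM values per gene and sample, rounded to 2 decimals. The aligner, the counting tool and its use of strand, and the annotation are not given in the sources used here. The authors' own comparison columns (a log2 ratio with a P and a Q value) and 6 per-sample columns that duplicate other columns were left out. The deposited gene coordinates match TAIR10.1 in 23857 of 24174 cases.

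Differences were fitted on the whole table in R 4.3.3 with limma 3.58.1 (log2(FPKM + 1), trended variance), for genes at FPKM 1 or above in 3 or more samples, and adjusted by the Benjamini-Hochberg method over all 18463 genes. Within-sample differences between related genes were compared by exact two-sided permutation. Low FPKM values are multiples of 1 fragment, which gave the depth. The depth and a length offset were chosen to bring as many of them as possible within 0.15 of a whole fragment count. At that choice 88.5% to 90.9% did. The 30% given by chance holds for a depth that was not fitted, so the gap is not a test of the estimate. Fragment numbers are estimates and cover counting error only. The limma step and the depth estimate were tested on simulated data. These were drawn independently for each gene and sample, so the tests do not cover effects shared between samples or genes. Sharing between genes was measured as the share of 50-base stretches of a transcript that any other annotated gene also carries, on either strand. Python 3.11.15, numpy 2.4.6, pandas 2.3.3, Biopython 1.88 and matplotlib 3.10.9 were used. All 120 listed identifiers were found in the reference and 116 in the table.

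The 10 genes and the other lists were chosen with earlier results of these data known. Named by rule are the 10 genes and, from each other list, the 3 called genes with the largest rise and the 3 with the largest fall. Genes needed to explain a count of 5 or fewer were added. Outside this rule PROPEP4 to PROPEP7, BAK1, RBOHD, EFR, MC4, ICS1, PBL1 and RLK7 are also named, as are genes taken by position. The alternatives were a pseudocount of 0.1, no filter, FPKM of at least 1 in every sample, a replicate block with and without a loess correction for GC content (span 0.3), median-ratio, TPM and quantile scaling, no mean-variance trend, each sample left out in turn and a limit of 1 on the log2 fold change.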

Additional observations from a re-analysis of the deposited data

How the results depend on the processing

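Each of the 8 tested genes kept its direction and its call in every alternative that tested it at the same threshold, 15 for each gene except PEPR2 and PHI-1 with 14. When a minimum log2 fold change of 1 was also required, 6 stayed called and PEPR1 and BIK1 did not. The log2 fold changes of PROPEP1, PROPEP2, PROPEP3 and PEPR1 ranged from 0.98 to 1.34, 2.04 to 2.57, 2.96 to 3.57 and 0.28 to 0.49, and those of PEPR2, BIK1, PHI-1 and NHL10 from 1.23 to 1.84, 0.45 to 0.66, 5.68 to 6.98 and 3.13 to 3.62. Median-ratio scaling moved the median of all genes from -0.13 to near 0 and the split of calls from 3933 higher and 7106 lower to 5381 and 4984.

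With no filter, FLS2 was called lower, making 1 of the 10 genes lower and 9 higher, at a log2 fold change of -0.41 (limma adjusted p = 0.0285), and FRK1 was called higher at 0.24 (limma adjusted p = 0.0225). Leaving out samples as well was added after seeing the data. FLS2 then ranged from -0.50 to -0.26, the smallest without the control replicate 3, and the call was lost without the Al replicate 1, 2 or 3 (-0.41, -0.40 and -0.41, limma adjusted p = 0.0726, 0.0813 and 0.0738). FRK1 ranged from 0.17 to 0.28, and its call was lost without the control replicate 1 or 2 (0.22 and 0.24, limma adjusted p = 0.0736 and 0.0683).

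With a limit of 1 on the log2 fold change, 1190 genes of the whole table were higher and 531 lower, 4 other peptide genes were higher (prePIP1, prePIP2, RALF33 and PROPEP6), 3 receptors (LLG1, BKK1 and SOBIR1) and 7 cytoplasmic genes were higher, and 0 receptors, 0 cytoplasmic genes and 0 other early genes were lower. Among the other peptide genes, 1 was lower with the replicate block and GC correction (PROPEP7) and 2 under TPM scaling (PROPEP7 and MC9), and 0 to 1 with a sample left out, PROPEP7 without the control replicate 3 and MC9 without the Al replicate 3. RLK7, a receptor called higher, was not called under quantile normalization (limma adjusted p = 0.0659, 0.00251 to 0.0659 over the alternatives). The causes were not tested.

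Whether same-numbered samples shared a culture or batch is not stated. They did not deviate together (correlations of -0.25, -0.04 and -0.22, and 0 of 3 control samples closest to the Al sample of their own number). With 3 samples per group this cannot settle the question. Under the replicate block the whole table gave 3648 higher and 6319 lower genes, the 8 genes stayed called, with a limma adjusted p of 0.0149 for PEPR1, and 1 listed pathway gene, PBL1, lost its call (limma adjusted p = 0.0589, as in 9 other alternatives).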

Other observations

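Around the PROPEP cluster on chromosome 5, the genes did not move as a block. AT5G64880, directly upstream of PROPEP2, had an FPKM of 29.2 ± 1.94 in the control and 30.2 ± 1.16 after Al (SD, n = 3 each) and was not called (log2 fold change 0.05, limma adjusted p = 0.560). AT5G64870, the next gene on that side, was at 0.23, 0.15 and 0.15 in the control and at 8.03, 5.15 and 4.82 after Al, with a log2 fold change of 2.54 (SE 0.16, limma adjusted p = 2.08e-06), and it passed the filter only through the Al samples. AT5G64910, directly downstream of PROPEP3, was at 0.13 or less in every sample. DPE1 (AT5G64860), an enzyme of starch breakdown, fell by 0.77 and CIP8 (AT5G64920), a ubiquitin ligase that binds COP1, by 0.36 on the log2 scale (limma adjusted p = 6.43e-05 and 0.00375). The call of CIP8 was not kept in every alternative (log2 fold change -0.43 to -0.22, limma adjusted p 0.0011 to 0.0780). AT5G64930, the gene beyond CIP8, had an FPKM of 22.7 ± 1.59 in the control and 21.6 ± 1.23 after Al (SD, n = 3 each). It was not called (log2 fold change -0.07, limma adjusted p = 0.481). These neighbours were taken by position and not by value, and genes of this stretch without FPKM values are not named.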
